A study of Homo sapiens with 6 samples.

Results

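The cytosolic ribosomal proteins are the protein components of the small (40S) and large (60S) subunits of the ribosome. They were taken as every row of the deposited count table whose gene name is RPL or RPS with a number and at most a closing A, X or L, or RPLP0, RPLP1, RPLP2 or RPSA. That name pattern used no measured value and found 81 of 58735 rows. Of these, 77 encode the core proteins, 31 of the small and 46 of the large subunit, and 4 (RPL3L, RPL10L, RPL39L and RPS27L) encode paralogs that the letter L marks. The members lie on 21 chromosomes, with 12 on chromosome 19 and 4 on the X chromosome. FAU, which encodes a ribosomal protein fused to a ubiquitin-like protein, falls outside the pattern and is given with the related genes.

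The libraries were made from oligo-dT selected RNA labelled as Panc-1, a human epithelial line from a pancreatic cancer, with the genotype given as WT in both groups. In the CAF group, 3 libraries came from Panc-1 after 72 h with cancer-associated fibroblasts (CAF), and these columns are headed PANC-1+CAF-NC, and the labels do not explain NC. In the other group, 3 libraries came from Panc-1 after 72 h with CAF overexpressing PAI-1, headed PANC-1+CAF-PAI-1 and called PAI-1 libraries below. The fibroblasts carried the overexpression, and how it was driven, where the fibroblasts came from and how they were kept apart from Panc-1 are not stated by the labels. Growth medium for Panc-1 was DMEM with serum and antibiotics in all libraries. Every label names Panc-1 except the extraction text, which describes Cal27 cells given Stattic or DMSO. Replicates are called biological, but separate cultures are not stated, and a p-value here reflects only how far these libraries scatter.

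Library totals ran from 13628508 to 16006880 counts. Levels are given as CPM (counts scaled to a common library size, with TMM factors). Summed marker levels and the cut of 1 CPM for markers use library totals alone, without TMM factors. Of 6 epithelial markers, all were above 1 CPM in at least 1 library, and their summed level was 1826 to 1918 CPM in the CAF libraries and 1982 to 2271 CPM in the PAI-1 libraries, mostly from KRT8 and KRT18. The log2 fold change was positive for 5 of the 6. CDH1 went the other way, at a mean of 1.67 and 1.01 CPM, with every PAI-1 library below every CAF library. Its log2 fold change of -0.73 did not pass an adjusted p of 0.05 by edgeR (0.115). Of 14 fibroblast markers, 9 stayed under 1 CPM in every library, among them DCN, LUM, PDGFRA, FAP and COL1A2. The summed fibroblast list was still higher in the PAI-1 libraries, at 668 to 768 CPM against 549 to 572 CPM, and S100A4 and COL1A1 made up most of it. Of 5 fibroblast markers tested, 4 had a positive log2 fold change. FBLN1 went the other way, at a mean of 116 and 110 CPM, and MMP2 averaged 47.3 and 51.2 CPM. Neither passed an adjusted p of 0.05 by edgeR. Among pancreatic markers SOX9 averaged 153 and 194 CPM and GATA6 3.99 and 9.38 CPM, while PDX1 and PTF1A were under 1 CPM in every library. Squamous markers were under 1 CPM in every library for 5 of 6 genes, the exception being SOX2 at 6.72 and 2.97 CPM. Leukocyte markers were under 1 CPM in every library for 4 of 6 genes (CD14 and ITGAM were above it), and endothelial markers for 3 of 4 (KDR was above it). The part of these marker differences in the results below was not tested.

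Ribosomal proteins are made in near equal numbers, since each ribosome holds 1 copy of almost every one, and unassembled copies are degraded. Their mRNAs are among the most abundant of a growing cell. In vertebrates most of them begin with a cytosine followed by a run of pyrimidines, the 5′ terminal oligopyrimidine (TOP) motif, through which the kinase complex mTORC1 and the RNA-binding protein LARP1 control their translation and stability. RNA sequencing reads mRNA levels and not their translation.

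The annotated start sites carried this motif in most members. RefSeq promoter entries on GRCh38.p14 were found for 64 member genes, and 17 had no entry. A C followed by at least 4 pyrimidines stood at the annotated first base in 46 of the 64 genes (71.9%), against 5.14% of 27305 genes with an entry. The windows below run 5′ to 3′ on the gene's own strand, from 15 bases before the start to 15 bases from the first transcribed base on. Capitals mark the unbroken pyrimidine run that begins at the first base. The first 7 belong to members that rose, among them RPS16, the most abundant, and they share the run.
RPS27, chr1:153990747-153990776, plus strand: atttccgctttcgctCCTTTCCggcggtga
RPL36A, chrX:101390996-101391025, plus strand: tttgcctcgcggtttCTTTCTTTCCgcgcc
RPS10, chr6:34426055-34426084, minus strand: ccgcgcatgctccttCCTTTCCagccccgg
RPS6, chr9:19380222-19380251, minus strand: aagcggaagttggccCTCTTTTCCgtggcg
RPL37A, chr2:216498829-216498858, plus strand: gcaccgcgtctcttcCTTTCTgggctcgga
RPS14, chr5:150449725-150449754, minus strand: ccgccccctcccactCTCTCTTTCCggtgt
RPS16, chr19:39435935-39435964, minus strand: gtggcccctagctttCCTTTTCCggttgcg
The next 4 lack the motif at the annotated base, and none of them rose. The windows are examples and do not tie the motif to a rise. Of the 16 core genes without it 10 rose, and of the 46 with it 32 rose, beside 17.2% of all genes. The 4 windows belong to 3 core genes, among them RPS26 and RPL4, and the paralog RPS27L.
RPS26, chr12:56041903-56041932, plus strand: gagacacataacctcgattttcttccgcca
RPL4, chr15:66504841-66504870, minus strand: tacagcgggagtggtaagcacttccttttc
RPL27, chr17:42998404-42998433, plus strand: ccggggtgaaaggttagcggaagtgtcctt
RPS27L, chr15:63157463-63157492, minus strand: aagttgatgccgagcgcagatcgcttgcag

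Short motifs were then searched in the same entries. CTTTCC within 30 bases of the start on the gene's strand was present in 34.4% of member genes and 3.6% of all genes, and CTTTTCC, which does not contain CTTTCC, in 17.2% and 1.1%. On either strand the shares were 34.4% and 6.84% for CTTTCC and 18.8% and 1.98% for CTTTTCC. In the whole entry, from 250 bases before to 50 bases after the start, CCGGAAG on either strand was present in 35.9% of member genes and 12.2% of all genes. AAGATGG on either strand was in 8 of the 64 member genes and 7.11% of all genes, and TATAAA in 9.38% and 14.0%. These are matches of letters in a window and say nothing of which factors bound there.

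Member levels were compared per kilobase of transcript, as CPM divided by the median length of a gene's protein-coding transcripts. The median over the 77 core genes was 459 CPM per kilobase in the CAF libraries, 541 for the small and 443 for the large subunit. Of the core genes, 53 lay within 2-fold of that median. RPS16, a small-subunit protein that touches the tRNA, stood far above the rest at 14238 CPM per kilobase, 31.0 times the core median, and RPS2 came next at 1401. RPS16 alone held 19.8% of the counts in members in the CAF libraries. No other gene of the annotation shares its exons on the same strand.

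At the low end stood core genes whose exons lie partly in a second gene on the same strand. RPS10, which sits at the mRNA entry side of the small subunit, was at 3.21 CPM per kilobase, with 71.1% of its exon bases inside another gene. RPL17, at the exit of the peptide tunnel, was at 11.6 CPM per kilobase with 53.5% shared. RPL36A was at 15.3 with 26.6% shared and RPL26 at 55.4 with 22.0%. The lowest level among the 72 core genes with under 20% shared was 92.8 CPM per kilobase, for RPS29. The genes that share those exons held almost no counts: RPS10-NUDT3, RPL36A-HNRNPH2 and the partner of RPL26 had 0 in all libraries, and RPL17-C18orf32 had 6 in total. Across the 77 core genes the level per kilobase was lower where more exon bases were shared, with a Spearman rho of -0.50 and a Pearson r of -0.76 on the log2 level. These points share the libraries and most of them have no shared exon, so this describes the table. The rule by which reads that fit 2 genes were assigned was not given in the sources used here, and the levels of these genes are uncertain.

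**Figure D1:**
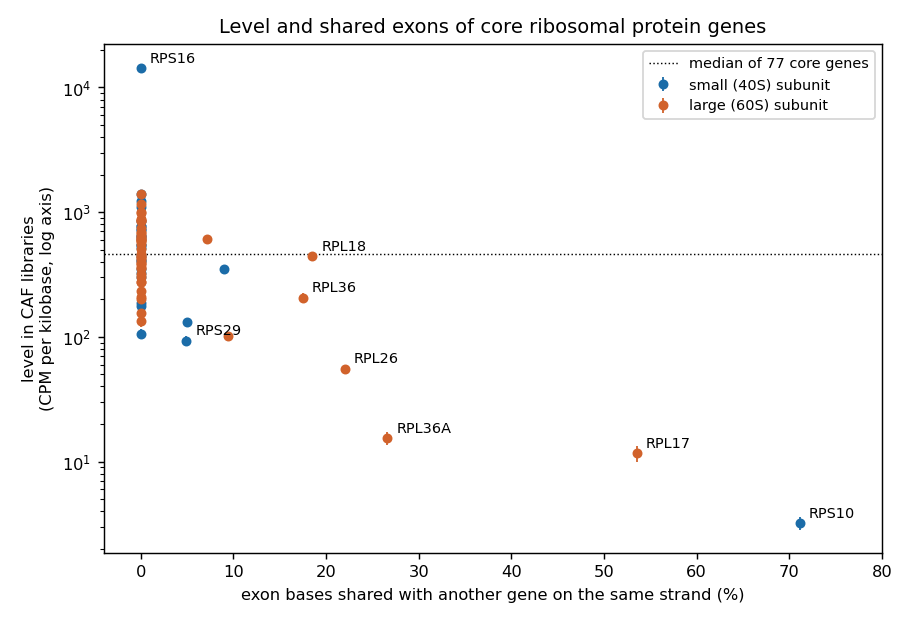
Each point is 1 of 74 core genes, with the level in the CAF libraries in CPM per kilobase (log axis, mean with SD over 3 libraries) against the percent of its exon bases shared with another gene on the same strand. RPS16 lies at 14238 CPM per kilobase, and the genes with over 20% shared bases lie at 55.4 or below.

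Most core ribosomal protein mRNAs were higher in Panc-1 after co-culture with the PAI-1 overexpressing fibroblasts, by a small amount that depended on the scaling of the libraries. Of 79 members tested, 50 rose, 1 fell and 28 did not pass an adjusted p of 0.05, while over all 14960 genes tested 17.2% rose and 15% fell, 32.2% in all (edgeR, Benjamini-Hochberg over all genes). The median log2 fold change was 0.18 over the members and -0.0015 over all genes tested. Among the 3356 genes tested whose mean level was at least that of the lowest core member with under 20% shared exons, 32.5% rose and 16.6% fell, with a median of 0.06. In the core genes the median change was 1.13-fold, and 74 of 77 had a positive value. All 3 PAI-1 libraries lay above all 3 CAF libraries for 55 of the 79 members, and below them for 1, against 22.3% and 21.1% of all genes (43.4% either way) and 37.9% and 21.3% of the 3356 abundant genes. In such bulk libraries, fewer cells of a type and less RNA per cell cannot be told apart.

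Scaling to library totals alone gave a smaller difference and fewer calls. Counts in members made up 3.96%, 4.20% and 4.11% of the CAF libraries and 4.14%, 4.66% and 4.43% of the PAI-1 libraries, or 4.09% ± 0.118 and 4.41% ± 0.26 (SD, n = 3 each). On this raw share the groups overlapped, since the first PAI-1 library lay below the second CAF library. An exact two-sided permutation test over the libraries gave p 0.2, so the difference in share did not pass 0.05. With 3 libraries a group that test cannot go below 0.1. Genes encoded in the mitochondrial genome took 5.53%, 5.81% and 5.92% of the CAF libraries and 5.12%, 3.78% and 4.76% of the PAI-1 libraries. Leaving them out of the total gave shares of 4.34% ± 0.133 and 4.62% ± 0.241 (permutation p 0.3). Leaving RPS16 out of the members gave 3.28% ± 0.109 and 3.52% ± 0.183 (permutation p 0.2). With library totals alone as the scale the member median was 0.11, that of all genes -0.07, and 24 members rose while RPS27L fell, against 12.3% and 21.3% of all genes (33.6% either way). Such a scaling moves every gene by about the same amount, so it cannot change the distance between the members and other genes. Correcting for transcript length and GC content, which can, gave medians of 0.18 and 0.01 and 53 members that rose.

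The libraries within each group were not equal. Member levels were lowest in CAF replicate 1, where 57 of the 79 members had their lowest value, and highest in PAI-1 replicate 2, where 51 had their highest. The median log2 deviation of the members from their own mean was -0.15, -0.03 and -0.07 in the CAF libraries and 0.02, 0.15 and 0.09 in the PAI-1 libraries. Without CAF replicate 1, 29 members rose, and without PAI-1 replicate 2, 40 did. PAI-1 replicate 2 also had the lowest mitochondrial share, and the part of that in the result was not tested.

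**Figure D2:**
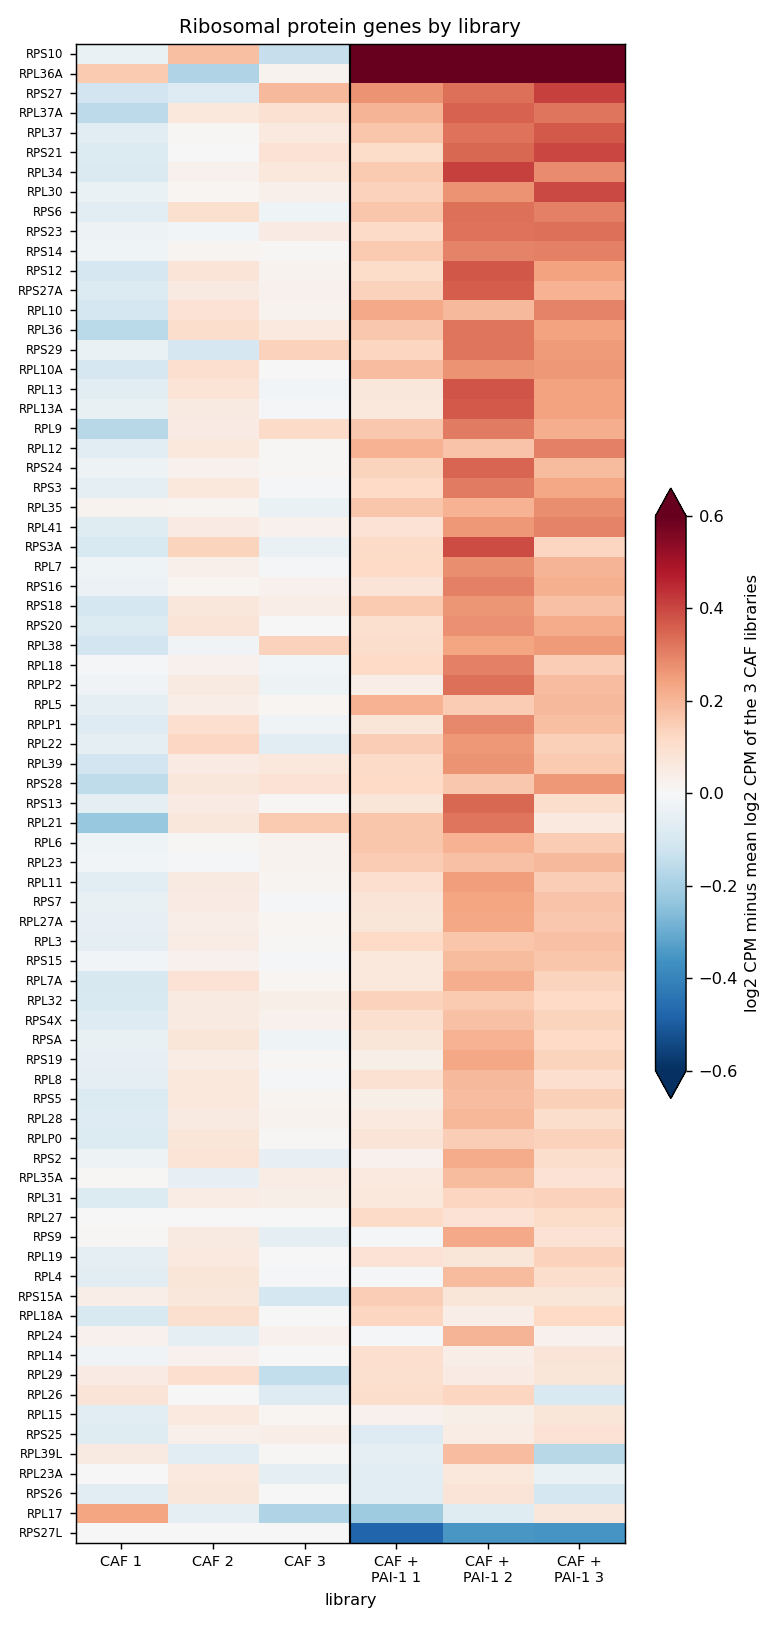
Rows are 76 of the 79 tested members in the order of their log2 fold change and columns are the 6 libraries; colour is the log2 CPM minus the mean over the 3 CAF libraries. Warm colours fill most rows in the PAI-1 columns, CAF 1 holds the lowest value of 57 members, and RPS27L at the foot is lower in all 3 PAI-1 libraries.

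In the small subunit 22 of 31 core genes rose and none fell by edgeR, with a median log2 fold change of 0.20. The shares over all genes were 17.2% and 15%, and over the 3356 abundant genes 32.5% and 16.6%. RPS16 measured 7734, 7995 and 8084 CPM in the CAF libraries and 8363, 9792 and 9198 CPM in the PAI-1 libraries. The groups did not overlap, and the first PAI-1 library was the nearest to the CAF level. Its mean went from 7938 ± 182 to 9118 ± 718 CPM (SD, n = 3), or 0.20 on the log2 scale (SE 0.058, adjusted p 0.00743), and with library totals alone as the scale its adjusted p was 0.0757. RPS6, the protein that S6 kinases phosphorylate downstream of mTORC1, measured 437, 490 and 450 CPM, then 514, 577 and 565 CPM. Every PAI-1 library was above every CAF library, and the log2 fold change was 0.27 (SE 0.057, adjusted p 0.000377). RPS27, a zinc finger protein of the small subunit, measured 136, 139 and 168 CPM in the CAF and 177, 185 and 195 CPM in the PAI-1 libraries. It had the highest log2 fold change among core genes with under 20% shared exons, 0.33 (SE 0.066, adjusted p 0.000216), and CAF replicate 3 was the high library of its group. RPS2, which lines the mRNA entry, measured 1308, 1414 and 1289 CPM, then 1361, 1559 and 1439 CPM. Its groups overlapped and it was not called (log2 fold change 0.12, SE 0.057, adjusted p 0.107).

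Proteins of the mRNA channel and the decoding site formed a list of 8 genes, of which 5 rose and none fell. For comparison, 17.2% of all genes rose and 15% fell, and 32.5% and 16.6% of the 3356 abundant genes. Of all 79 members tested 63.3% rose, so the list is close to the members as a whole. RPS14 rose from 553 ± 8.66 to 659 ± 37.4 CPM (SD, n = 3; log2 fold change 0.25, adjusted p 0.000362). RPS23, which reaches into the decoding centre, rose by 0.26 and RPS3, a protein of the mRNA entry channel, by 0.22 on the log2 scale. RPS26, at the mRNA exit, was 203, 223 and 212 CPM in the CAF libraries and 203, 224 and 197 CPM in the PAI-1 libraries. The groups overlapped almost fully, with a fold change of -0.03 in log2 (SE 0.058, adjusted p 0.719), and with RPL23A and RPL17 it was 1 of 3 core genes below 0.

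In the large subunit 28 of 46 core genes rose and none fell, with a median log2 fold change of 0.18. Here too the shares to compare with are 17.2% and 15% over all genes, and 32.5% and 16.6% over the 3356 abundant genes. RPL4, with a long extension that lines the peptide tunnel, measured 1335, 1470 and 1388 CPM, then 1388, 1594 and 1502 CPM. Its groups overlapped and it was not called (log2 fold change 0.10, SE 0.057, adjusted p 0.203). RPL37A, a zinc finger protein, measured 326, 380 and 387 CPM in the CAF libraries and 418, 464 and 454 CPM in the PAI-1 libraries. CAF replicate 1 was the low library, the groups did not overlap, and the log2 fold change was 0.29 (SE 0.060, adjusted p 0.000306).

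The P stalk is the arm that recruits translation factors to the ribosome. Its base, RPLP0, measured 1207, 1341 and 1284 CPM, then 1347, 1414 and 1403 CPM, and was not called although its groups just missed each other (log2 fold change 0.12, SE 0.054, adjusted p 0.087). The stalk proteins RPLP1 and RPLP2 rose by 0.18 (SE 0.058, adjusted p 0.0161) and 0.19 (SE 0.060, adjusted p 0.0134) on the log2 scale. RPLP1 measured 589, 665 and 612 CPM, then 653, 758 and 704 CPM. RPLP2 measured 459, 484 and 457 CPM, then 479, 587 and 531 CPM. In both genes PAI-1 replicate 1 lay below CAF replicate 2, so the groups overlapped, and with library totals alone as the scale neither was called (adjusted p 0.135 and 0.117).

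RPL5 and RPL11 form, with 5S rRNA, the particle that binds and inhibits MDM2, the ubiquitin ligase of p53, when ribosome assembly fails. RPL5 measured 353, 377 and 369 CPM, then 423, 407 and 419 CPM. RPL11 measured 425, 464 and 451 CPM, then 479, 531 and 495 CPM. Neither gene's groups overlapped, and the log2 fold changes were 0.18 (SE 0.052, adjusted p 0.0062) and 0.17 (SE 0.055, adjusted p 0.0173). With library totals alone as the scale both lost the call, at adjusted p 0.0764 and 0.16.

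Around the exit of the peptide tunnel, 3 of 9 genes rose and none fell, with a median log2 fold change of 0.10. Over all genes tested 17.2% rose and 15% fell, and over the 3356 abundant genes 32.5% and 16.6%. The share of tunnel genes that rose is close to that of the abundant genes and below the 63.3% of all 79 members. RPL17 and RPL26, both in this list, lie below the level that the abundant set requires. RPL35, the docking site of several exit factors, rose by 0.22, RPL39, which lines the tunnel, by 0.18 and RPL22 by 0.18. With library totals alone as the scale RPL39 and RPL22 were not called (adjusted p 0.134 and 0.149). RPL23A, to which the signal recognition particle binds, measured 153, 160 and 148 CPM, then 147, 160 and 149 CPM, with overlapping groups and a log2 fold change of -0.01 (adjusted p 0.877). Genes mutated in Diamond-Blackfan anaemia, an inherited failure of red cell production, numbered 23, of which 13 rose and none fell, with a median log2 fold change of 0.17. RPS27 and RPL35 were among those that rose. RPS19, the gene most often mutated in that disease, was not called (log2 fold change 0.13, adjusted p 0.0635). These lists are parts of the members, so the 63.3% of all members is the share to set beside them. They overlap each other and describe the same libraries.

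**Figure D3:**
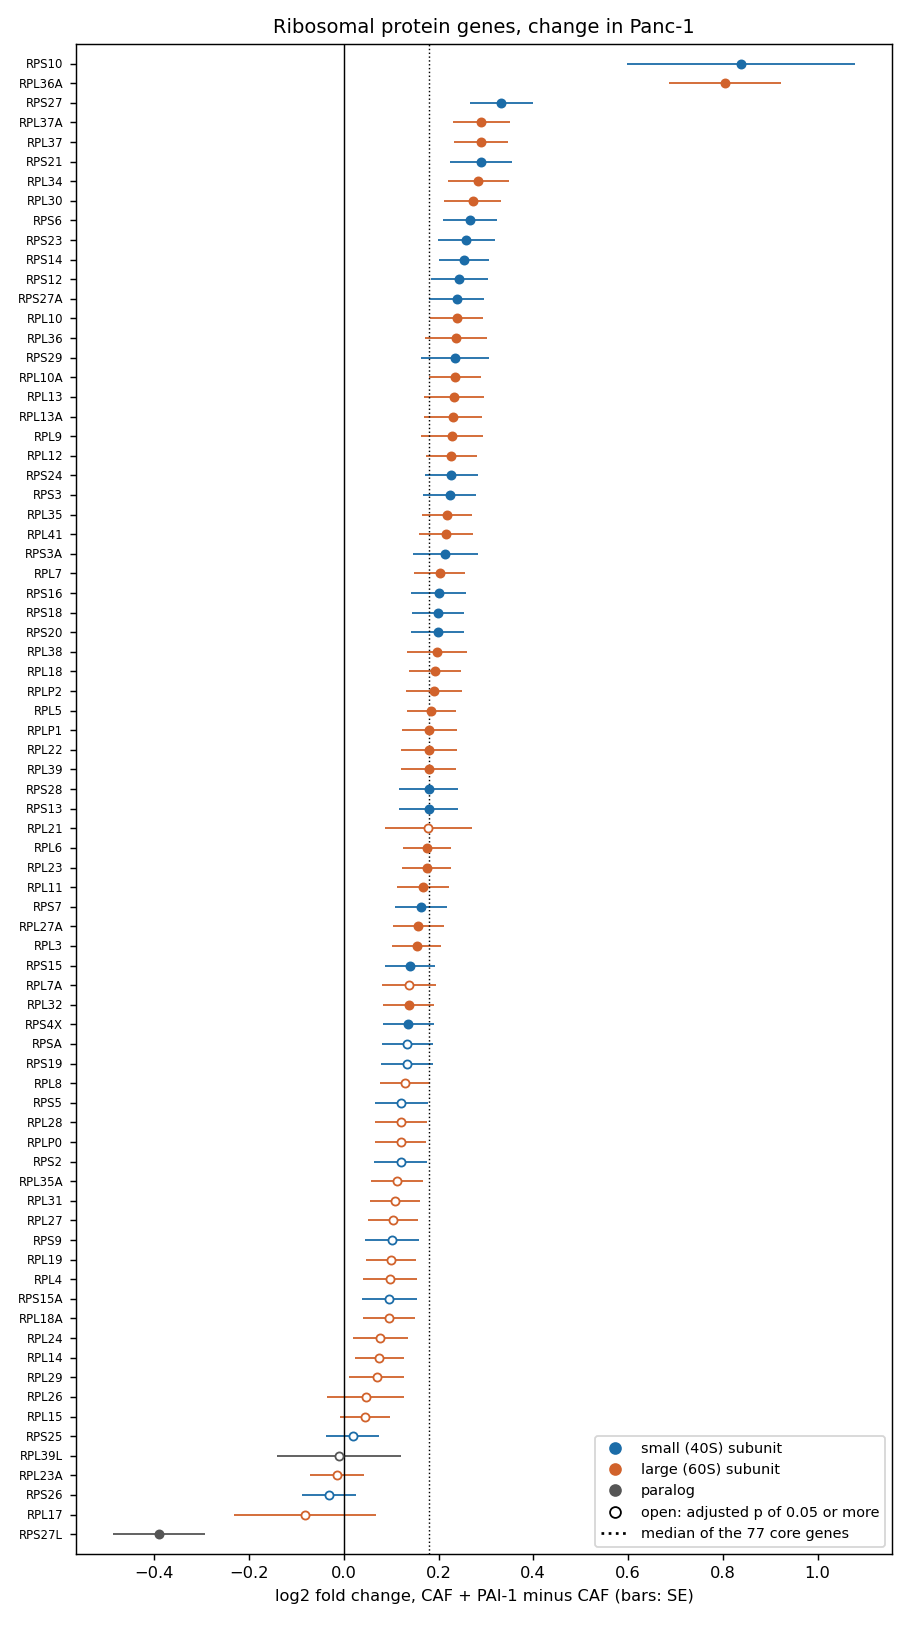
Points are the log2 fold changes (PAI-1 minus CAF libraries) of 76 of the 79 tested members with their SE as bars; filled points passed an adjusted p of 0.05 and the dotted line is the core median of 0.18. Between RPS27 at 0.33 and RPS26 at -0.03 the core genes form a narrow band, RPS10 and RPL36A stand to its right, and RPL17 at -0.08 and the paralog RPS27L to its left.

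Core genes with under 20% shared exons lay close together. Their log2 fold changes ran from -0.03 to 0.33 with an SD of 0.073 over 72 genes, and the median SE of a single gene was 0.056. Of these 72 genes, 47 rose, while 17.2% of all genes and 32.5% of the 3356 abundant genes rose. At the threshold, RPS4X (adjusted p 0.0487, log2 fold change 0.14) and RPL32 (0.0493, 0.14) were the last called, and RPSA (0.0561, 0.13) was just outside. Across all 77 core genes the log2 fold change had a Spearman rho of -0.17 and a Pearson r of -0.49 with the mean log2 CPM, -0.34 and -0.19 with transcript length, and -0.14 and -0.095 with GC content. These values describe genes of the same libraries. The 46 core genes with the oligopyrimidine start included 32 that rose, with a median log2 fold change of 0.20. The 16 without it included 10 that rose, with a median of 0.14, and the 15 with no promoter entry included 8, with a median of 0.17. The grouping uses the exact annotated base, so a run that begins a few bases away, as in RPL4, counts as absent. The difference between these groups was not tested.

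The highest fold changes belonged to RPS10 and RPL36A, both with exons inside a second gene. RPS10 measured 2.00, 2.33 and 1.87 CPM in the CAF libraries and 3.18, 4.36 and 3.62 CPM in the PAI-1 libraries, from only 33, 37 and 26 counts and 47, 60 and 56 counts. RPL36A, a large-subunit protein near the tRNA exit site, measured 11.8, 9.32 and 10.7 CPM, then 17.5, 19.6 and 18.5 CPM. In both genes all PAI-1 libraries lay well above all CAF libraries. The log2 fold changes were 0.84 for RPS10 (SE 0.24, adjusted p 0.00715) and 0.80 for RPL36A (SE 0.12, adjusted p 1.9e-06). When a change was tested against 1.2-fold with edgeR's glmTreat, 3 members passed, among them RPS10 at adjusted p 0.0395 and RPL36A at 0.000139. The share of all genes that passed this test is not given here. RPL17 and RPL26, also with over 20% shared exons, were not called. RPL17 measured 9.89, 8.06 and 7.41 CPM, then 7.24, 7.99 and 8.79 CPM, and RPL26 39.4, 37.3 and 35.4 CPM, then 40.1, 40.8 and 34.97 CPM. Their groups overlapped and their log2 fold changes were -0.08 and 0.05. Adding the counts of a gene's processed pseudogenes, which for RPS10 hold 156% of its own counts, gave RPS10 a log2 fold change of 0.54 (adjusted p 0.00878).

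RPS27L, a paralog of RPS27 whose gene is a p53 target, was the 1 member that fell. It measured 24.0, 24.1 and 24.0 CPM in the CAF libraries and 17.3, 18.9 and 18.8 CPM in the PAI-1 libraries. The groups did not overlap, and the log2 fold change was -0.39 (SE 0.097, adjusted p 0.00197), a level of 0.763 times that in the CAF libraries. RPL39L, a paralog of RPL39 best known from the testis, measured 11.3, 10.4 and 10.9 CPM, then 10.4, 12.3 and 9.70 CPM, with overlapping groups and a fold change of -0.01 in log2 (SE 0.131, adjusted p 0.967). RPL3L, the form of RPL3 found in heart and skeletal muscle, had at most 7 counts in a library and 25 in all. RPL10L, a testis-expressed copy of RPL10, had 0 counts in every library, where 3 counts correspond to between 0.187 and 0.220 CPM by library totals alone. Both were too low to test. Among paralogs that the name pattern leaves out, 3 of 4 rose, beside 17.2% of all genes. RPL22L1, a paralog of RPL22, had the highest log2 fold change of these at 0.59 (SE 0.112, adjusted p 8.94e-05). RPL7L1 rose by 0.21 and RPL36AL by 0.20. FAU was not called, at 0.13 (adjusted p 0.10).

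Libraries were also scaled to the summed counts of the members, so that a fold change is relative to the ribosomal protein pool itself. On that scale the member median was 0.0073 and that of all genes -0.17. Within the pool 3 members were higher, RPL36A and RPS10 among them, and RPS27L, RPS26 and RPL23A were lower, while 6.12% of all genes were higher and 28.8% lower (34.9% either way). RPS27L had a log2 fold change of -0.56 (adjusted p 0.000154), RPS26 of -0.20 (adjusted p 0.0244) and RPL23A of -0.19 (adjusted p 0.0432). The other 73 members tested did not pass on this scale.

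**Figure D4:**
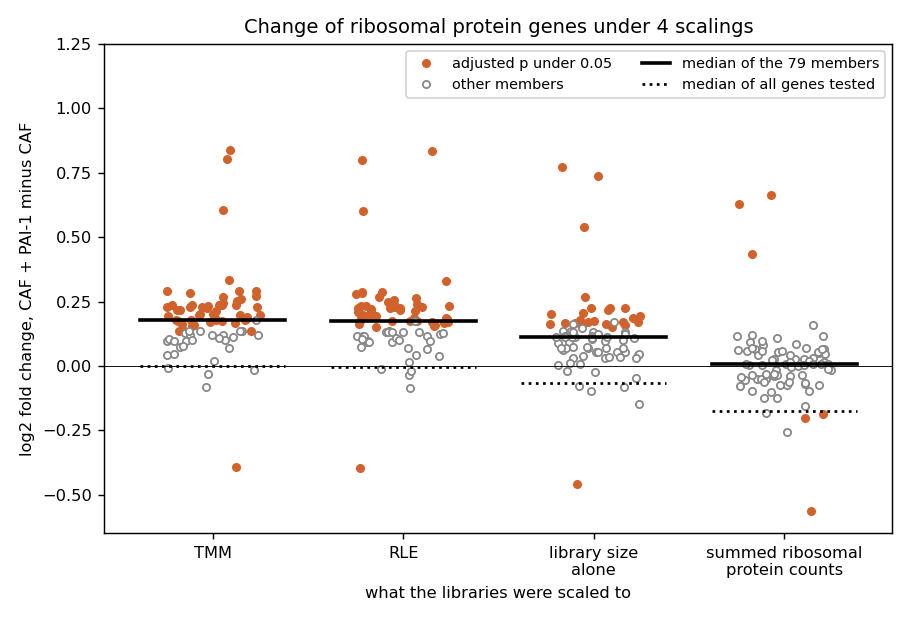
Each point is the log2 fold change of 1 of the 79 tested members with the libraries scaled by TMM, by RLE, by library totals or by the summed counts of the members; filled points passed an adjusted p of 0.05. The member median (thick line) runs from 0.18 to 0.0073 and the median of all genes (dotted) from -0.0015 to -0.17, since a scaling moves all genes together.

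Processed pseudogenes of ribosomal proteins are near copies of the mRNA scattered over the genome, and a read of the parent can fall on them. Altogether 1132 rows carry a member's name followed by P and a number, and 69 of them were tested. Of those, 3 rose and 3 fell (17.2% and 15% over all genes), with a median log2 fold change of 0.10. Their summed counts were between 2.99% and 3.17% of those of the members in every library. For RPL9 the pseudogene rows held 177% of the gene's own counts, and for RPL26, RPL7, RPS2 and RPL39 between 18.4% and 24.7%. With the pseudogene counts added before the fit, 49 members rose and 1 fell.

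Other mRNAs listed as having an oligopyrimidine start, mostly of translation factors, were read from the same fit, where 17.2% of all genes rose and 15% fell. Of 25 tested, 11 rose and none fell, with a median log2 fold change of 0.13. The annotated first base carried the motif in 17 of them, of which 9 rose, and 7 had no promoter entry. EEF1B2, a subunit of the exchange factor of elongation factor 1, rose by 0.33 (SE 0.059, adjusted p 3.35e-05), EIF3D by 0.29 and EIF3M by 0.28, both subunits of initiation factor 3, and the annotated start of all 3 genes carried the motif. Other subunits of that factor, EIF3E, EIF3F and EIF3H, had log2 fold changes of 0.10, -0.02 and 0.05 and were not called. RACK1, a scaffold protein that sits on the small subunit, rose from 1491 ± 73.2 to 1737 ± 48.2 CPM (SD, n = 3), a log2 fold change of 0.22. EEF1G had 0 counts in every library, and 99.9% of its exon bases lie in a second gene, which had 88 counts in all. Host genes of small nucleolar RNAs, a class known for such starts, rose in 8 of 8 cases, with a median of 0.45, and SNHG29 and SNHG32 were not matched by name. Of these 8 genes, 3 carried the motif at an annotated start, 4 did not, SNHG8 among them, and 1 had no entry. SNHG8 rose from 9.33 ± 0.937 to 17.9 ± 1.43 CPM (SD, n = 3), which is 0.94 on the log2 scale (SE 0.122, adjusted p 2.12e-07), SNHG6 by 0.48 and SNHG5 by 0.42 on the log2 scale.

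For regulators of these mRNAs the shares to compare with are again 17.2% higher and 15% lower over all genes. Among 18 genes of mTORC1 signalling and TOP binding, 5 rose and 3 fell, with a median log2 fold change of 0.02. DDIT4, an inhibitor of mTORC1, rose by 0.44 (SE 0.069, adjusted p 5.11e-06), and EIF4EBP1, the translation repressor that mTORC1 inactivates, by 0.34. TSC1, part of the complex that holds mTORC1 in check, fell by 0.39 (SE 0.072, adjusted p 6e-05). TSC2, its partner, fell by 0.27 and MTOR, the kinase itself, by 0.28. LARP1 measured 392 ± 26.2 and 377 ± 22.4 CPM and was not called (log2 fold change -0.06, adjusted p 0.467). Of 10 genes for kinases and phosphatases of RPS6 and related kinases, 2 rose and 1 fell, with a median of 0.07: RPS6KA2 rose by 0.79, RPS6KA4 by 0.22, and RPS6KA5 fell by 0.66. Both counts are close to what all genes show. The S6 kinase genes RPS6KB1 and RPS6KB2 had log2 fold changes of -0.03 and -0.01 and were not called.

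Genes that carry ribosomal proteins or act on the assembling ribosome numbered 15, of which 7 rose and none fell, with a median log2 fold change of 0.19. GRWD1, the chaperone of RPL3, rose from 63.1 ± 0.966 to 90.6 ± 6.35 CPM (log2 fold change 0.52, adjusted p 1.13e-07), NOB1, the nuclease that matures 18S rRNA, by 0.56 and PDCD2, the chaperone of RPS2, by 0.28. Of 18 genes of ribosome quality control, 7 rose and 3 fell, with a median of 0.13. The shares to set beside both lists are 17.2% higher and 15% lower over all genes. Over the 3356 abundant genes they are 32.5% and 16.6%, and the quality control counts are close to these. Some genes of both lists, NOB1 and RNF25 among them, lie below the level that the abundant set requires. RNF25, a ubiquitin ligase that acts at stalled ribosomes, rose by 0.61, ABCE1, which splits ribosomes for reuse, by 0.39, and EDF1, a sensor of collided ribosomes, by 0.35. A list of genes linked to MDM2, p53 and free ribosomal proteins, with MYC among them, held 7 tested genes. Of these 1 rose, which was MYC, and 2 fell, too few to set apart from the shares over all genes. MDM2 measured 96.5 ± 2.32 and 68.1 ± 1.64 CPM, and its log2 fold change was -0.50 (SE 0.062, adjusted p 7.34e-08). MYC, a transcriptional activator of ribosomal protein genes, rose by 0.54 (SE 0.070, adjusted p 2.11e-07), and HUWE1, a ubiquitin ligase for unassembled ribosomal proteins, fell by 0.22. CDKN2A, whose ARF product binds MDM2, had 0 counts in every library.

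**Figure D5:**
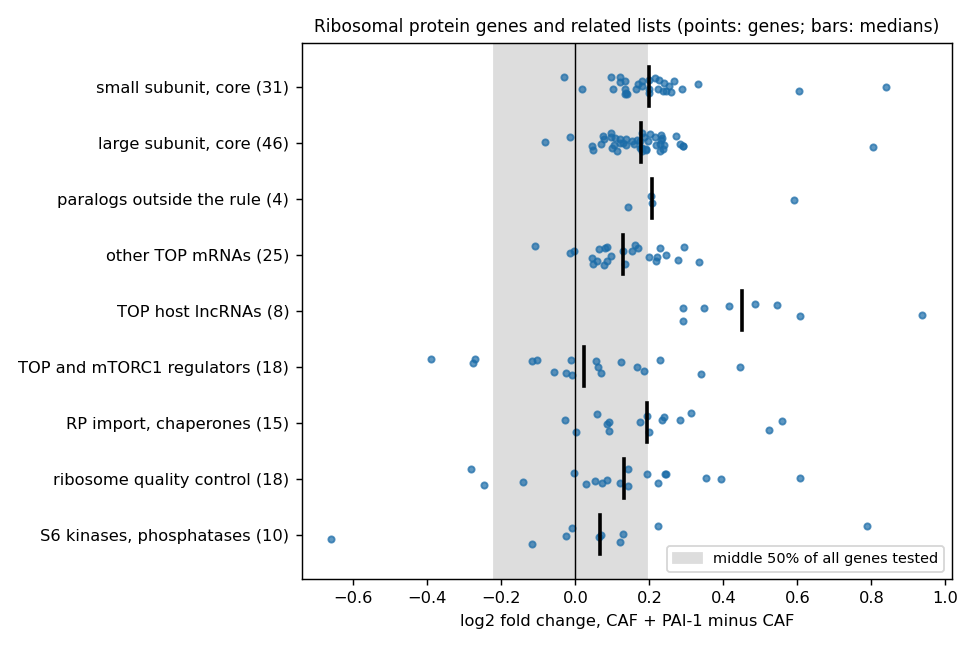
Each point is the log2 fold change of 1 tested gene, the thick bars are list medians, and the grey band holds the middle of all genes tested, from -0.22 to 0.19. The medians of the small and large subunit genes are 0.20 and 0.18, that of the snoRNA host genes is 0.45 and that of the mTORC1 and TOP regulators is 0.02.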

How the data were processed

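The authors deposited 1 table of whole-number counts per gene for the 6 libraries, and no other sample column was left aside. BWA, Bowtie2, RSEM and hg19 appear in the submitters' processing notes, with no roles or versions. The 58735 identifiers equal the ones in GENCODE release 29, built on GRCh38, from which gene coordinates, transcript lengths and shared exons were taken. The counting step, its use of strand and the treatment of reads that fit several genes were not given in the sources used here.

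Genes passed edgeR's filterByExpr (minimum count 10, total 15), and edgeR 4.0.16 under R 4.3.3 tested them (TMM scaling, estimateDisp, robust glmQLFit, glmQLFTest, no covariates, PAI-1 minus CAF libraries). Benjamini-Hochberg adjusted p-values run over all 14960 genes tested, and those under 0.05 are called: rose and fell are used of called genes. CPM are TMM-scaled, except for the marker sums, the marker cut and the CPM of 3 counts. The SE of a fold change was derived from the F statistic. Library pairs within a group differed by more than sampling noise (chi-square per degree of freedom 2.58 to 9.51). The common coefficient of biological variation was 6.06%.

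Gene names were matched to the pattern by text, and shared exons leave out small RNA genes. Named members are the 5 called in each direction with the largest change, the 3 most abundant, the stalk, 5S particle and paralog genes and RPS6. From each list the called genes with the 3 smallest p were named, and the 2 most abundant markers. RPL17, RPL26, RPL23A, RPS26, RPS19, RACK1, LARP1, RPS6KB1, RPS6KB2, EEF1G, EIF3E, EIF3F, EIF3H, MTOR, TSC2, CDKN2A, CDH1, MMP2, FBLN1 and the markers near 0 were named after their values were seen. The members and all lists were chosen with earlier results of these data known. Alternatives were RLE, library totals and pool scaling, GC and length offsets, other filters, DESeq2 1.42.0, limma-voom (limma 3.58.1), a replicate block, a fold threshold, pseudogene counts and each library left out. Some genes and their values are not reported here. The share without RPS16 was added after seeing the data.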

Additional observations from a re-analysis of the deposited data

How the results depend on the processing

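The count of members that rose was 24 with library totals alone, 3 with libraries scaled to the summed members and 3 against a 1.2-fold threshold, in place of 50. The count that fell was 3 with the summed members as scale and 0 against the 1.2-fold threshold, in place of 1. The member median was 0.11 with library totals alone and 0.0073 with the summed members. On that last scale called members that changed sign included RPL3 (-0.018), RPS4X (-0.035), RPL27A (-0.016), RPL11 (-0.0050), RPS15 (-0.033), RPL32 (-0.033) and RPS7 (-0.010). Under that scaling the sum of the members is held constant by construction.

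Leaving out each library in turn gave 29 (without CAF replicate 1) to 56 members that rose (without PAI-1 replicate 1), 1 that fell, a median of 0.13 to 0.20 and a difference in the share of counts of 0.192 to 0.451 percentage points. The higher end of that share difference was without PAI-1 replicate 1 and the lower without PAI-1 replicate 2, against 0.316 with all libraries. RLE scaling, both other filters, DESeq2, limma-voom, fits without robust estimation, the GC and length offset and added pseudogene counts gave between 48 and 55 members that rose and 1 that fell. With RLE scaling 16.8% of all genes rose and 15.3% fell. For the other fits in this paragraph those shares are not given here. In 16 alternatives, all but the pool scaling and the 1.2-fold threshold, the same 23 members rose each time, among them RPS6, RPS27, RPL37A, RPL36A and RPS10.

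With the replicate number as a block, 59 members rose and 1 fell, and the shares over all genes in that fit are not given here. Same-numbered libraries did not deviate together (correlations of 0.00234, 0.0122 and 0.0063), so the numbers were not taken to pair the samples. With 3 libraries a group, a library weighs heavily, and RPS10 rests on 26 to 60 counts a library.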
